A study of Mus musculus with 10 samples.

Results

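Heat shock proteins and chaperones are the proteins that help other proteins fold, keep unfolded chains from clumping and hand those that cannot be rescued to degradation. They work as machines of several families: HSP70 proteins bind short stretches of unfolded chain in cycles driven by ATP, J-domain proteins (the DNAJ families) bring them their clients, BAG and HSP110 proteins release the bound nucleotide so that the client is let go, HSP90 proteins finish the folding of kinases and receptors, small HSPs hold unfolded chains, and the ring-shaped CCT complex folds actin and tubulin. Many of these genes are switched on by the heat shock factor HSF1 when unfolded proteins collect in the cytosol, while those of the endoplasmic reticulum (ER) answer to the unfolded protein response of that compartment. Stromal cells of bone secrete much collagen and matrix protein, which passes through the ER chaperones.

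The genes described here are all rows of the deposited table whose symbol begins with the letters of these families (Hspa, Hspb, Hspd, Hspe, Hsph, Hsp90, Dnaja, Dnajb and Dnajc with a number, Bag1 to Bag6, Cct2 to Cct8, Hsf1 and Hsf2), which gave 81 of 15078 genes. The rule uses symbols alone. They comprise 13 HSP70 genes, Hsph1 of the HSP110 family, 3 HSP90 genes, 6 small HSP genes, the HSP60 and HSP10 pair Hspd1 and Hspe1, 4 DNAJA, 10 DNAJB and 25 DNAJC genes, 6 BAG genes, 7 CCT subunits, 2 heat shock factors, and Hspbp1 and Hspbap1, which the symbol rule also takes. Of the 81 genes, 79 had a mean of at least 10 normalized read counts and were tested, and Dnajc6 and Hsf2 lay below that mean.

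RNA was sequenced from CD51+CD200+ stromal cells sorted from mouse bone in 3 groups. The study describes such cells as gated without CD45, Ter119 and CD31, markers of blood, red and endothelial cells. BM-MSCs (bone marrow mesenchymal stem cells, 3 libraries) and P-SSCs (periosteal skeletal stem cells, 3 libraries) are titled as host cells at steady state. Their titles give no genotype or treatment. The study names wild-type mice where it describes Postn levels in steady-state cells of this sort. Graft BM-MSCs (4 libraries) were Tomato+ marrow cells of femurs from transgenic donors with an inducible Cre under the Postn promoter and a tdTomato reporter, taken 5 months after the femurs were placed under the skin of hosts, which were given tamoxifen early after surgery. The label therefore rests on the cells in which Postn was active at that time. Genotype, tamoxifen, transplantation, the Tomato gate and any difference in age of the graft cells cannot be told apart in the comparisons with steady-state cells. Whether the steady-state mice had carried a graft or been given tamoxifen is not stated in the sources used here. BM-MSC 2+4 and P-SSC 2+5 each hold the pooled RNA of a pair of mice and count as 1 library, and the labels give no age. The methods give an age range in weeks for mice unless otherwise specified, while graft cells were taken 5 months after transplantation. No other age is given for the steady-state cells. Values are normalized read counts, the reads of a gene over a scaling factor set for each library. The methods state that replicates held RNA of distinct mice, so the spread within a group includes that between mice.

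Libraries held 15415421 to 25223295 reads in the listed genes. Between 9308 and 11674 genes had a read in the graft libraries and between 12217 and 13341 in the others, and all 21 chaperone genes listed at 0 in some library were at 0 in a graft library, against 2 genes at 0 in a BM-MSC library and 2 in a P-SSC library. Libraries also fell into 2 sets by the level of 51 very GC-rich genes (over 65% GC), which was high in the 4 graft libraries and P-SSC 4 and low in the 3 BM-MSC libraries, P-SSC 1 and P-SSC 2+5. This split is called GC class below. All graft libraries are in one class and all BM-MSC libraries in the other, so GC class and group cannot be told apart in that comparison. Only the P-SSCs hold libraries of both classes. A fit with GC class as a covariate thus takes the class effect from P-SSC 4 against the other P-SSC libraries. Calls kept or lost in such a fit hinge on P-SSC 4. The sort markers Itgav (CD51) and Cd200 were detected in all libraries, the sum of 7 marrow stroma markers such as Cxcl12 and Lepr was 867168 to 1184256 in BM-MSCs, 714858 to 852498 in graft BM-MSCs and 5515 to 11305 in P-SSCs, and that of 7 periosteal and fibroblast markers such as Postn and Pi16 was 416932 to 651732 in P-SSCs, 8073 to 12554 in BM-MSCs and 1278 to 3243 in graft BM-MSCs, where Cd34 and Thbs4 were listed at 0. Markers of red cells (6 genes) summed to 58705 to 205924 in BM-MSCs, 1483 to 27755 in graft BM-MSCs and 202 to 1407 in P-SSCs, those of neutrophils (6 genes) to 23883 to 60452, 4562 to 88629 and 12.6 to 102, and those of cartilage (5 genes) to 33799 to 73966, 0 to 3566 and 676 to 1715, and the part of such cells in the results was not tested.

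Together the 81 genes took 7027 to 9164 reads per 1000000 in BM-MSCs, 8968 to 11697 in P-SSCs and 7337 to 8755 in graft BM-MSCs. Per kilobase of exon, the most abundant were Hspa5, the ER member of HSP70, with a mean of 7099 normalized read counts per kb over the 10 libraries, Hspa8, the constitutive HSP70 of the cytosol, with 6154, and Hsp90ab1, the constitutive HSP90, with 5381. Cct5 followed with 2108 and Hsp90b1 with 1764 per kb. The HSP70 family held 3724 to 5259 reads per 1000000 in P-SSCs, 2795 to 3598 in BM-MSCs and 2689.6 to 3229 in graft BM-MSCs, so that P-SSCs lay above both other groups without overlap. The small HSP family ran from 30.4 to 56.0 in BM-MSCs through 102 to 210.3 in graft BM-MSCs to 265 to 407 in P-SSCs, also without overlap between the groups. In the DNAJB family the order was different, with 546 to 795 in graft BM-MSCs, 337 to 548 in BM-MSCs and 346 to 426 in P-SSCs, and graft and BM-MSC libraries overlapped by a narrow margin. Over all libraries Dnajb1 had the highest mean of this family, and 7 of the 10 DNAJB genes had negative log2 differences between graft BM-MSCs and P-SSCs (median -0.67, beside -0.47 for all genes tested).

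**Figure D1:**
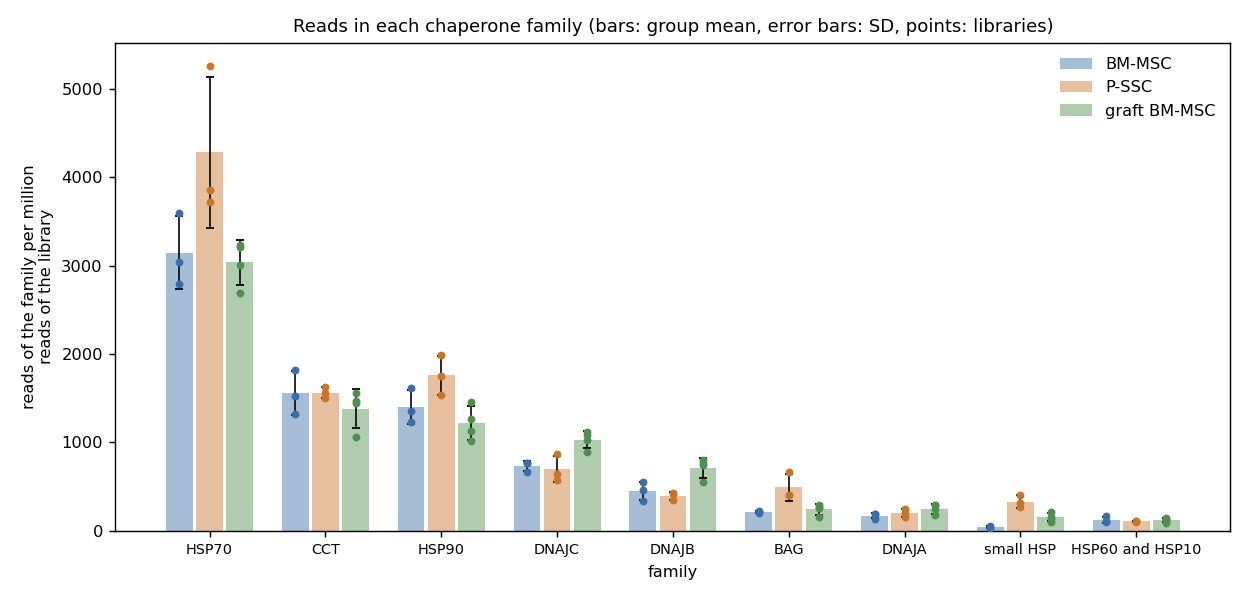
Reads of 9 chaperone families per 1000000 reads of the library (vertical axis, linear from 0), with bars for the group mean, error bars for the SD and points for libraries (3 BM-MSC, 3 P-SSC, 4 graft BM-MSC). HSP70 genes hold the most reads in every group, and the P-SSC points of the HSP70, small HSP and BAG families lie above those of both other groups.

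P-SSCs were compared with BM-MSCs to see how the resting stem cells of the periosteum and of the marrow differ. In limma 4 of 79 genes passed the test (5.06%, against 9.15% of all 13644 genes tested), and all 4 were higher in P-SSCs: Hspb8, Bag3, Hspa8 and Hsp90ab1. In edgeR 2 of the 79 passed (Bag3 and Hspb8) and in DESeq2 6, with Bag1 and Hspb1 besides these 4. Of all genes tested, 4.57% were higher and 4.58% lower. At an unadjusted p under 0.05 there were 8 of the 79 (18.7% of all genes). Groups did not overlap for 25 of the 79 genes (31.6%, against 30.9% of all genes), with P-SSCs higher in 22 (15.1% of all genes) and lower in 3 (15.8%). Within the low GC class 5 passed, 4 higher and 1 (Dnajc3) lower in P-SSCs. The test was limma on log2(value + 1) with Benjamini-Hochberg adjustment over all genes tested and a threshold of 0.05, and every fold change below is on that scale, which understates changes of genes with low values. The median log2 difference of the 79 genes was 0.26, and that of all genes tested 0.00. Hspb8 and Hspa8 passed in each of 6 fits that left out 1 library of these groups, and the count was 2 without BM-MSC 1, without P-SSC 1 and without P-SSC 2+5. In a bulk sample, a lower value may mean fewer cells that express a gene or less of its RNA in each cell, and these cannot be told apart here.

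The comparison of graft BM-MSCs and P-SSCs was made because the graft cells carry a label from a promoter active in the periosteum. Here 19 of 79 genes passed (24.1%, against 18.1% of all genes), with 18 lower and 1 higher in graft BM-MSCs, or 22.8% lower against 12.0% of all genes, and 1.27% higher against 6.08%. The median log2 difference was -0.71 for the 79 genes and -0.47 for all genes tested, so both the chaperones and the rest of the transcriptome sat below 0. Groups did not overlap for 30 of the 79 genes (38.0%), with graft BM-MSCs lower in 29 and higher in 1, against 26.6% of all genes, 18.5% lower and 8.06% higher. At an unadjusted p under 0.05 there were 32 of the 79 genes, beside 32.8% of all genes. The 8 genes Hspa12a, Hspa8, Bag3, Hsp90ab1, Bag6, Dnajc28, Hspbp1 and Hspb8 passed in each of 7 fits that left out 1 library, and these 8 were the genes that passed without P-SSC 1, while 10 passed without P-SSC 2+5. A correction for GC content left 9 genes, 7 lower and 2 higher, and a fit with GC class as a covariate left 7, all lower. Within the high GC class, which holds 1 P-SSC library and so allows no test, all graft libraries lay below P-SSC 4 for 35 of the 79 genes (44.3%, against 30.6% of all genes tested) and above it for 7 (8.86%, against 13.8%).

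Graft and steady-state BM-MSCs were compared to see how marrow cells 5 months after transplantation differ from those of steady-state marrow. Here 5 of 79 genes passed (6.33%, against 7.67% of all genes), with Hspb8 higher and Hspa12a, Bag6, Hspbp1 and Cct7 lower in graft BM-MSCs. Of all genes tested, 2.61% were higher and 5.06% lower. Groups did not overlap for 27 of the 79 (34.2%, against 25.0% of all genes), with graft BM-MSCs higher in 9 (10.3% of all genes) and lower in 18 (14.7%), and 31 had an unadjusted p under 0.05 (25.5% of all genes). The median log2 difference was -0.58 for the 79 genes and -0.53 for all genes tested. Direction depended on the scaling in this comparison: 2 rose and 3 fell with centring on the median, 4 rose and 3 fell with quantile normalization, 5 rose and 1 fell with the GC correction, and 8 rose and 8 fell with DESeq2, against 1 and 4 in the values above. With GC class as a covariate none of the 79 passed in limma (6 with an unadjusted p under 0.05), while edgeR and DESeq2, without the covariate, called 4 and 16. The class effect in that fit came from the P-SSC libraries alone, so the fit cannot separate class from group here. Bag6 and Hspa12a passed in each of 7 fits that left out 1 library, and the count was 2 without BM-MSC 3, 3 without BM-MSC 2+4, 8 without graft BM-MSC 2 and 16 (8 higher, 8 lower) without graft BM-MSC 2 and P-SSC 4 together, a fit added after the values were seen.

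**Figure D2:**
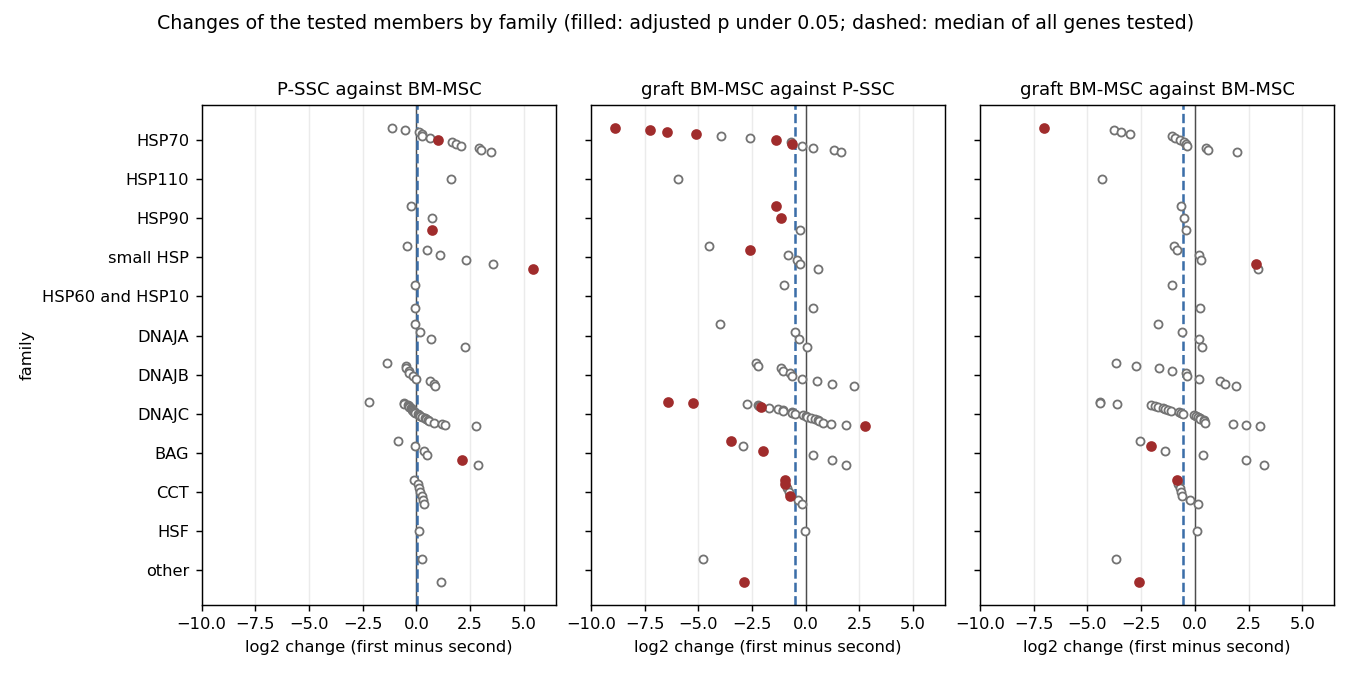
Log2 differences (horizontal axes, first group minus second) of the 79 tested genes by family (rows) in the 3 comparisons, with filled points for an adjusted p under 0.05 in limma, a solid line at 0 and a dashed line at the median of all genes tested. Filled points lie right of 0 for P-SSC against BM-MSC and, except for Dnajc3, left of 0 for graft BM-MSC against P-SSC.

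**Figure D3:**
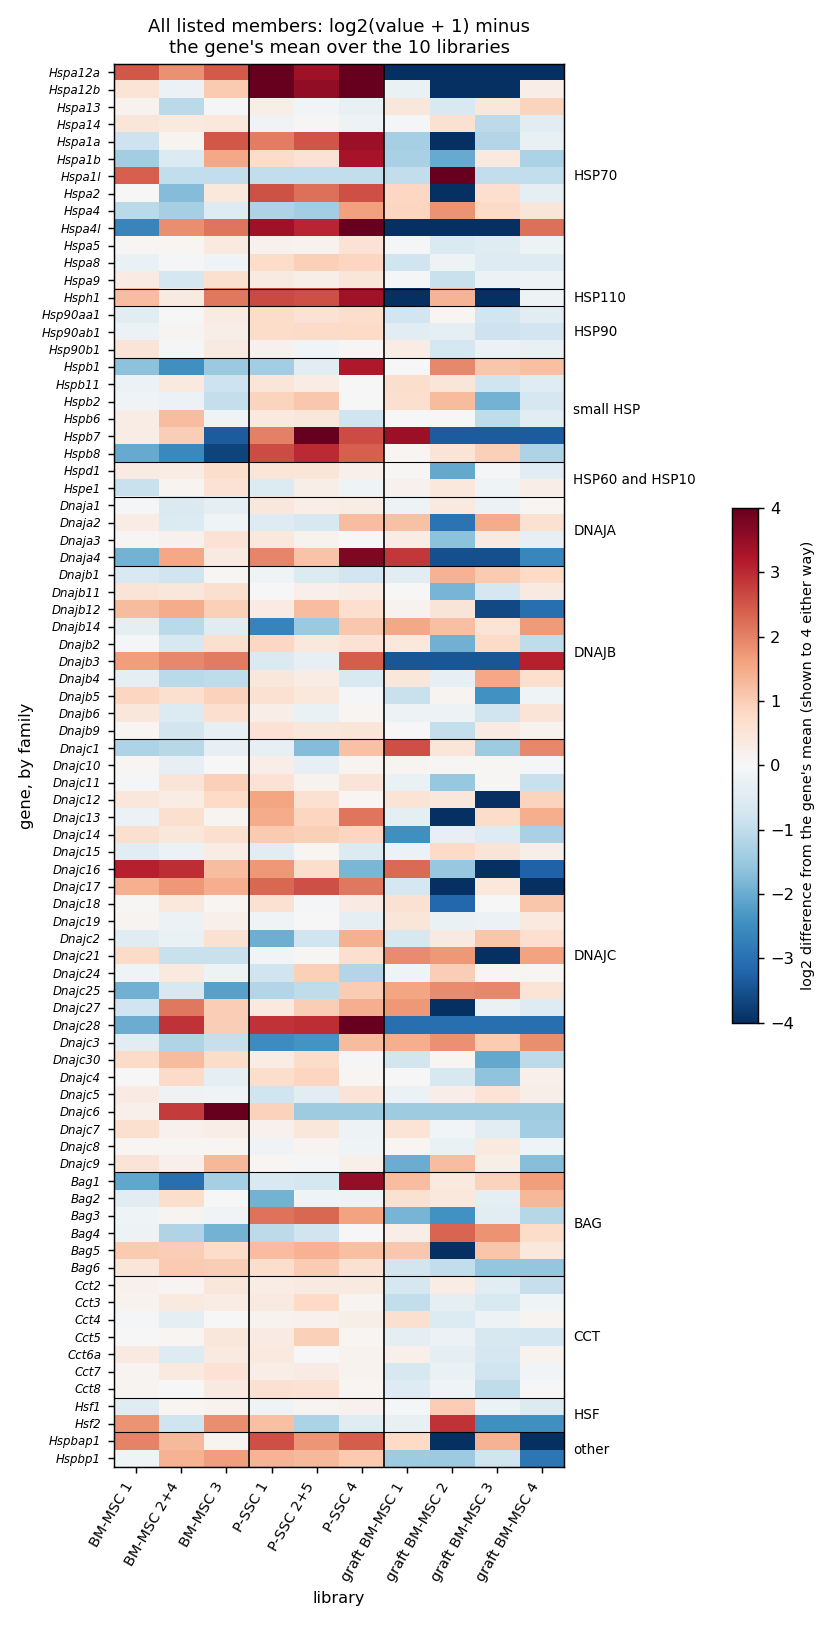
All 81 genes (rows, by family) in the 10 libraries (columns), as log2(value + 1) minus the mean of the gene over all libraries, with colours that end at 4 either way. The P-SSC columns are red for Hspa12a, Hspa12b, Hspa4l, Hspb8 and Bag3, and several rows, such as Bag1 and Dnajc3, change colour between P-SSC 4 and the other P-SSC columns.

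Hspb8 (Ensembl ENSMUSG00000041548; chromosome 5, 116408491 to 116422864, minus strand, GRCm38) had the largest log2 difference of the 79 genes between P-SSCs and BM-MSCs. It encodes a small HSP that works with BAG3 to pass damaged cytoskeletal proteins to autophagy. Hspb8 was at 190.1, 127 and 58.2 in the BM-MSC libraries, 4685, 6076 and 3992 in the P-SSC libraries and 808, 1111, 1490.4 and 325 in the graft BM-MSC libraries, in normalized read counts as for all values below. All P-SSC libraries were above all graft libraries, and all graft libraries above all BM-MSC libraries. The log2 difference between P-SSCs and BM-MSCs was 5.42, or 42.9-fold (SE 0.60, limma adjusted p = 2.59e-04). Graft BM-MSCs were 5.95-fold lower than P-SSCs (SE 0.56, limma adjusted p = 0.00918) and 7.20-fold higher than BM-MSCs (SE 0.56, limma adjusted p = 0.0141), and the last of these calls was lost without BM-MSC 3, which held the lowest value (limma adjusted p = 0.0602). With the GC correction the difference from P-SSCs was -1.84 on the log2 scale and did not pass (limma adjusted p = 0.0753). With GC class as a covariate neither graft comparison passed (limma adjusted p = 0.177 against P-SSCs and 0.36 against BM-MSCs).

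Bag3 (Ensembl ENSMUSG00000030847; chromosome 7, 128523616 to 128546981, plus strand) encodes the co-chaperone that ties HSP70 to small HSPs. It was at 1045, 1267 and 1079 in the BM-MSC libraries, 5379, 5802 and 3601 in the P-SSC libraries and 329, 220.1, 871 and 534 in the graft BM-MSC libraries. P-SSCs were highest and graft BM-MSCs lowest, and no 2 groups overlapped. P-SSCs were 4.28-fold above BM-MSCs (log2 difference 2.10, SE 0.47, limma adjusted p = 0.0161), a call that was lost without BM-MSC 1, BM-MSC 3, P-SSC 1 and P-SSC 2+5 in turn (limma adjusted p from 0.0644 to 0.069). Graft BM-MSCs were 11.2-fold below P-SSCs (log2 difference -3.49, SE 0.44, limma adjusted p = 3.41e-04). Against BM-MSCs the log2 difference of -1.39 did not pass (SE 0.44, limma adjusted p = 0.0833). Graft BM-MSCs thus lay between the steady-state groups for Hspb8 and below both for its partner Bag3.

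Other small HSP genes varied within groups. Hspb7, a small HSP known from heart and skeletal muscle, was at 11.5, 19.0 and 0 in the BM-MSC libraries, 39.5, 158 and 61.1 in the P-SSC libraries and 107, 0, 0 and 0 in the graft BM-MSC libraries, so it was above 0 in every P-SSC library and listed at 0 in 3 of 4 graft libraries, but it did not pass in any comparison (limma adjusted p = 0.434 for P-SSCs against BM-MSCs). Hspb6 and Hspb2, which are also abundant in muscle, were at 145 to 701 and 18.1 to 171 over all libraries, and neither passed. Muscle markers were read in the same libraries, and P-SSC sums overlapped with BM-MSCs for smooth muscle and with graft BM-MSCs for skeletal muscle. The summed level of 5 smooth muscle markers was 12698 to 38469 in P-SSCs, 5615 to 15639.8 in BM-MSCs and 5847 to 11600.1 in graft BM-MSCs. Of 7 skeletal muscle markers 5 were listed, with sums of 1193 to 3204, 747 to 1105 and 302 to 1923, and Acta1, its skeletal actin, was at 547, 893 and 206 in P-SSCs and listed at 0 in all other libraries. Des was highest in graft BM-MSC 3 (1923, beside 442 to 1791 in P-SSCs). Tagln was highest in graft BM-MSC 4 (164, beside 3.88 to 28.0 in P-SSCs). Each of the other listed muscle markers had its highest value in a P-SSC library. The part of muscle cells in the levels of Hspb8 and Bag3 was not tested.

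**Figure D4:**
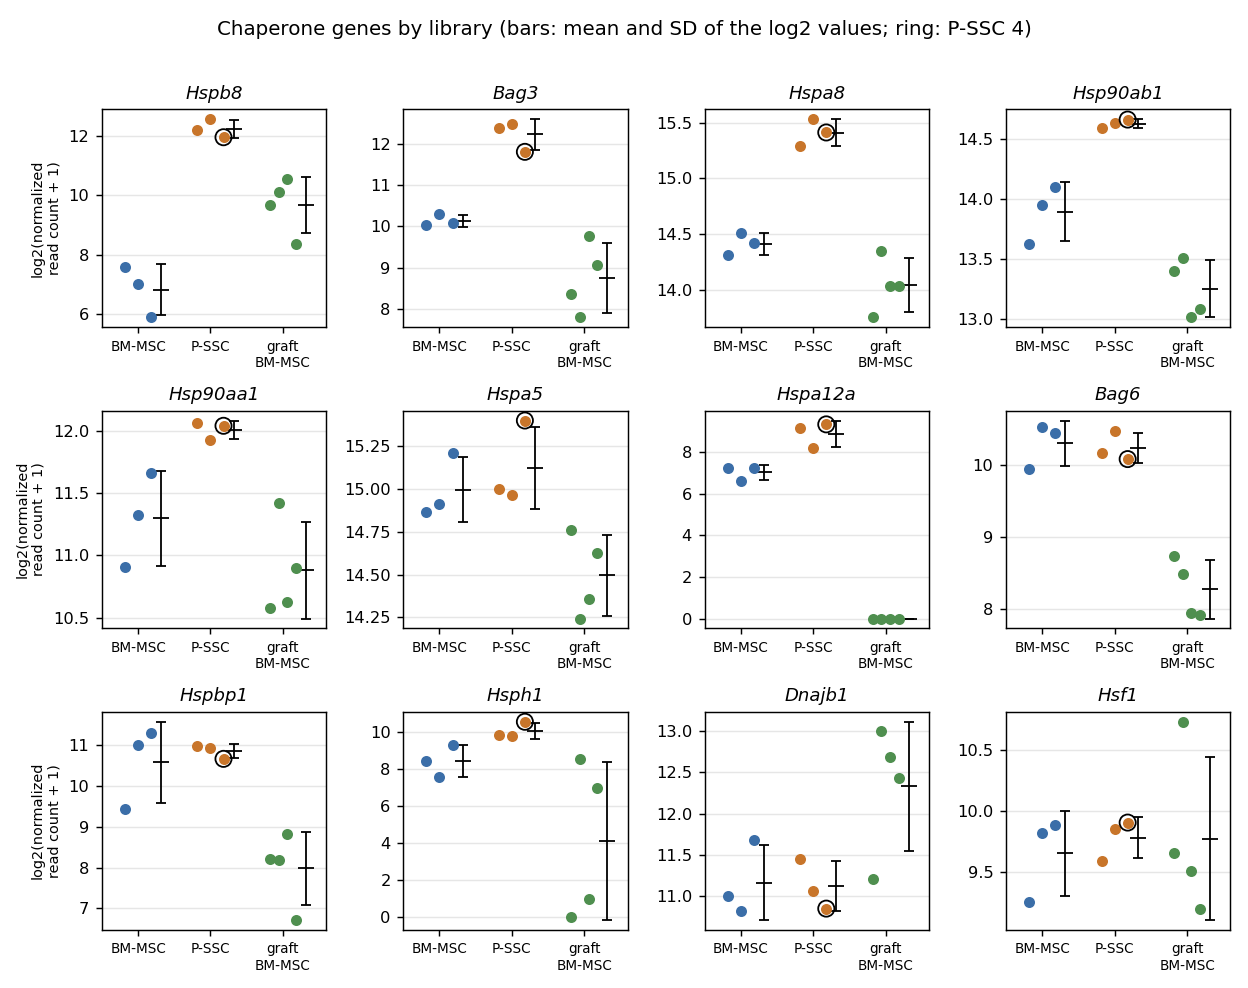
Log2(normalized read count + 1) (vertical axes, not starting at 0) of 12 chaperone genes in each library of the 3 groups, with the mean and SD of the log2 values beside the points and a ring around P-SSC 4. P-SSC points lie above all others for Hspb8, Bag3, Hspa8, Hsp90ab1, Hsp90aa1 and Hspa12a, and graft points below all others for Bag3, Hsp90ab1, Hspa5, Hspa12a, Bag6 and Hspbp1.

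Of 13 HSP70 genes, 6 fell in graft BM-MSCs against P-SSCs in limma (46.2%, against 12.0% of all genes tested). DESeq2 also called 6, with Hspa1b in place of Hspa4l, while edgeR called 2 (Hspa12a and Hspa8) and limma with GC class as a covariate 3 (Hspa12a, Hspa5 and Hspa8). Hspa8 (Ensembl ENSMUSG00000015656; chromosome 9, 40800984 to 40810087, plus strand), which folds new chains and strips clathrin from vesicles, was at 20322, 23281 and 21876 in the BM-MSC libraries, 40012, 47276 and 43581 in the P-SSC libraries and 13816, 20923, 16802 and 16796 in the graft BM-MSC libraries. P-SSCs were above both other groups, while BM-MSC and graft libraries overlapped. P-SSCs were 2.00-fold above BM-MSCs (43623 ± 3632 (SD, n = 3) against 21826 ± 1480.2 (SD, n = 3) normalized read counts; SE 0.17, limma adjusted p = 0.00376), and graft BM-MSCs were 2.58-fold below P-SSCs (SE 0.16, limma adjusted p = 2.71e-04). Neither call was lost when any 1 library was left out. Both were lost with the GC correction, where the log2 differences were 0.99 and -0.87 (limma adjusted p = 0.196 and 0.14). Of 100-base stretches of the Hspa8 transcript, 31.6% also occur in transcripts of other loci such as processed pseudogenes, so its level is uncertain.

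Hspa12a and Hspa12b, distant HSP70 relatives without a known heat shock response, had the largest log2 differences of the 79 genes between graft BM-MSCs and P-SSCs. Hspa12a was at 150.4, 97.0 and 149 in the BM-MSC libraries, 568, 285 and 638 in the P-SSC libraries and 0, 0, 0 and 0 in the graft BM-MSC libraries. It was thus listed at 0 in all 4 graft libraries and detected in all 6 others. Against a floor of 3 reads per library, averaged over the graft libraries, P-SSCs were at least 202-fold and BM-MSCs at least 53.7-fold higher, and both differences passed (limma adjusted p = 1.87e-04 and 0.00339). Hspa12b, known from endothelium, was at 139, 81.2 and 198 in the BM-MSC libraries, 1635, 1122 and 1711 in the P-SSC libraries and 78.5, 0, 0 and 114 in the graft BM-MSC libraries, with every P-SSC library far above every other. Graft BM-MSCs were below P-SSCs (SE 1.72, limma adjusted p = 0.0151), which was lost without P-SSC 1 (limma adjusted p = 0.068) and without P-SSC 2+5 (0.0533). The endothelial markers Tie1 and Emcn were listed at 0 in all P-SSC and graft libraries and detected in all BM-MSC libraries. Cdh5 was at 2.08, 58.6 and 14.5 in the P-SSC libraries and listed at 0 in all others. Pecam1 and Kdr were not among the listed genes.

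Hspa1a and Hspa1b are the neighbouring stress-inducible HSP70 genes, whose RNA is scarce in resting cells and rises many-fold after heat shock. Hspa1a was at 71.0, 135 and 710.1 in the BM-MSC libraries, 527, 731 and 1389 in the P-SSC libraries and 49.2, 0, 55.4 and 104 in the graft BM-MSC libraries. All P-SSC libraries were above all graft libraries (SE 1.53, limma adjusted p = 0.0414). BM-MSC 3 lay within the range of the P-SSCs and BM-MSC 1 within that of the graft libraries. The call was lost in 5 of 7 fits without 1 library, with the highest limma adjusted p of 0.12 without P-SSC 2+5. Hspa1b was at 75.2, 137 and 584 in the BM-MSC libraries, 329, 297 and 1953 in the P-SSC libraries and 80.2, 48.1, 259 and 82.9 in the graft BM-MSC libraries, and did not pass (SE 0.96, limma adjusted p = 0.09). P-SSC 4 held the highest value of both genes. Their transcripts share 47.1% of the 100-base stretches of Hspa1a, so reads could have been split between them and each value is uncertain.

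The remaining HSP70 relatives of the cytosol moved unevenly. Hspa4l, an HSP110-type nucleotide exchange factor, was at 3.13, 92.8 and 112 in the BM-MSC libraries, 267, 211 and 413 in the P-SSC libraries and 0, 0, 0 and 117 in the graft BM-MSC libraries, with the P-SSC libraries above all others, and its fall in graft BM-MSCs against P-SSCs (SE 1.94, limma adjusted p = 0.0437) was lost in 6 of 7 fits without 1 library (limma adjusted p up to 0.131). Hsph1, the inducible HSP110, was at 349, 191 and 639 in the BM-MSC libraries, 922, 888 and 1507 in the P-SSC libraries and 0, 376, 1.01 and 128 in the graft BM-MSC libraries. All P-SSC libraries were above all others, and the graft libraries were scattered from 0 to 376, and neither comparison with P-SSCs passed (limma adjusted p = 0.0516 for graft BM-MSCs and 0.88 for BM-MSCs). Hspa2 was at 139, 41.1 and 189 in the BM-MSC libraries, 833, 651 and 845 in the P-SSC libraries and 251, 0, 226 and 108 in the graft BM-MSC libraries, with the P-SSC libraries again above all others, and did not pass (limma adjusted p = 0.137 and 0.524). A set of 9 HSP70, HSP110 and HSP90 genes of the cytosol was grouped after the values had been seen, without Hspa1l, Hspa14, Hspa12a and Hspa12b. In 8 of the 9, P-SSC libraries were above all graft libraries (88.9%, against 18.5% of all genes tested). That share depends on the genes taken, and over all 13 HSP70 genes it was 9 (69.2%). In limma 5 of the 9 passed as lower in graft BM-MSCs (55.6%, against 12.0%). By edgeR 3 of the 9 passed, by DESeq2 5 and in limma with GC class as a covariate 2 (Hspa8 and Hsp90ab1).

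Promoter sequence from RefSeq (GRCm38.p6, 250 bases before to 50 after each start) was matched for 66 of the 81 genes and searched on both strands for the heat shock element, the site of HSF1. Written with 3 units (GAANNTTCNNGAA, or TTCNNGAANNTTC on the other strand), it occurred in 0.603% of all 32851 windows and in 6.98% of the 86 windows of these genes, in Dnajb6, Hspd1, Hspe1 and Hsph1. With 2 units (GAANNTTC or TTCNNGAA, which the longer form contains) it occurred in 15.1% of all windows and 23.3% of the windows of these genes, among them Hspa1a, Hspa1b, Hspb1, Bag3 and Hspb8. The last 2 have it just after the start. These percentages count windows and not separate sites. The Hspd1 and Hspe1 windows overlap and hold the same 3-unit matches, and the windows of Dnajb6, like those of Hsph1, overlap each other. The stretches below are shown because they hold the elements of inducible genes described here, with matches in capitals. Hspa1a and Hspa1b carry the same 38 bases, and Hspd1 carries 2 overlapping matches of the 3-unit form.
Hspa1a, chr17:34972238-34972275, minus strand: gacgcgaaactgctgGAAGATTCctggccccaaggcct
Hspa1b, chr17:34959320-34959357, minus strand: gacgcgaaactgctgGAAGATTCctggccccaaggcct
Hspb1, chr5:135887787-135887844, plus strand: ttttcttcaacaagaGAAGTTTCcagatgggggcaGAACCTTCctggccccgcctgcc
Hspd1, chr1:55088044-55088091, minus strand: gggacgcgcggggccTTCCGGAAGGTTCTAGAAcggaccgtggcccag
Of these, Hspd1 had log2 differences of -0.07 between P-SSCs and BM-MSCs and -1.0 between graft BM-MSCs and P-SSCs, neither of which passed. Hspa1a had 2.09, which did not pass either, and -5.12, the call that was lost in 5 of 7 fits without 1 library.

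Among the HSP90 genes, both cytosolic members were lower in graft BM-MSCs than in P-SSCs and the ER member was not. Hsp90ab1 (Ensembl ENSMUSG00000023944; chromosome 17, 45567775 to 45573271, minus strand) was at 12633, 15855 and 17567 in the BM-MSC libraries, 24629, 25356 and 25865 in the P-SSC libraries and 10831, 11651, 8292 and 8706 in the graft BM-MSC libraries. No 2 groups overlapped, and P-SSCs were highest and graft BM-MSCs lowest. P-SSCs were 1.66-fold above BM-MSCs (SE 0.19, limma adjusted p = 0.0368), which was lost in 5 of 6 fits without 1 library (limma adjusted p from 0.0737 to 0.142), while graft BM-MSCs were 2.59-fold below P-SSCs (SE 0.18, limma adjusted p = 4.41e-04) and passed in all 7 such fits. The difference between graft and steady-state BM-MSCs was -0.64 on the log2 scale (SE 0.18, limma adjusted p = 0.0563).

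Hsp90aa1, the stress-inducible form, was at 1914, 2566 and 3254 in the BM-MSC libraries, 4291, 3907 and 4224 in the P-SSC libraries and 1526, 2748, 1575 and 1912 in the graft BM-MSC libraries. The P-SSC libraries were the highest, and BM-MSC and graft libraries overlapped. Graft BM-MSCs were 2.19-fold below P-SSCs (SE 0.27, limma adjusted p = 0.0151), a call lost without P-SSC 1 (limma adjusted p = 0.0609). With the GC correction it was also lost (limma adjusted p = 0.291), as was that of Hsp90ab1 (0.141). Of the 100-base stretches of Hsp90aa1, 47.5% occur in transcripts of other genes, most often of the predicted gene Gm12346, so its level is uncertain.

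In the ER, Hspa5 (BiP), the HSP70 that pulls chains into the lumen and holds the stress sensors inactive, was at 29915, 30809 and 37976 in the BM-MSC libraries, 32839, 32026 and 43259 in the P-SSC libraries and 27708, 19391, 21015 and 25278 in the graft BM-MSC libraries. Graft BM-MSCs were below both other groups without overlap, and P-SSC 4 was highest. The fall against P-SSCs was 1.54-fold (SE 0.18, limma adjusted p = 0.037) and was lost in 5 of 7 fits without 1 library (limma adjusted p up to 0.0964). Under the GC correction the log2 difference was -0.18. The fall of 0.63 on the log2 scale lay beside a shift of -0.47 over all genes tested. Hsp90b1 (GRP94), the ER member of HSP90, was at 9958, 6707 and 8931 in the BM-MSC libraries, 7745, 6405 and 7167 in the P-SSC libraries and 8466, 4279, 5865 and 5611 in the graft BM-MSC libraries, with overlap between all groups and no call (SE 0.24, limma adjusted p = 0.475).

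Dnajc10, a J protein with thioredoxin domains that reduces disulphide bonds and the DNAJC gene with the highest mean, hardly varied. It was at 2323, 1719 and 2196 in the BM-MSC libraries, 2623, 1743 and 2326 in the P-SSC libraries and 2356, 2271, 2269.9 and 2122 in the graft BM-MSC libraries, with log2 differences of 0.09, 0.04 and 0.13 for the steady-state groups, graft cells against P-SSCs and graft against steady-state BM-MSCs. Dnajb9 (ERdj4), a BiP partner induced by ER stress, was at 354, 201 and 266 in the BM-MSC libraries, 501, 459 and 471 in the P-SSC libraries and 332, 174, 421 and 368 in the graft BM-MSC libraries, with P-SSCs above both other groups and no call (limma adjusted p = 0.465 against BM-MSCs and 0.372 between graft cells and P-SSCs). Dnajb11, another BiP partner, was at 2794, 2702 and 3080.2 in the BM-MSC libraries, 1999.5, 2271 and 2433 in the P-SSC libraries and 1981, 546, 1245 and 2536 in the graft BM-MSC libraries, and its graft libraries overlapped with the P-SSCs. A set of 8 ER genes of the HSP70, HSP90 and J-protein families was grouped after the values had been seen. It did not hold Dnajc14, an ER membrane J protein that also fell in graft BM-MSCs against P-SSCs and is described below. Of the 8, 1 fell and 1 rose in graft BM-MSCs against P-SSCs in limma, where edgeR called none and DESeq2 only Hspa5. None passed in the other comparisons in limma or edgeR. There, 3 had an unadjusted p under 0.05 in limma for graft against steady-state BM-MSCs and 0 for P-SSCs against BM-MSCs, and DESeq2 called 1 (Dnajc3) and 0. Their median log2 difference between graft BM-MSCs and P-SSCs was -0.12, above the -0.47 of all genes, and its sign changed to positive with quantile normalization and the GC correction.

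The gene that rose was Dnajc3 (p58IPK), a BiP partner that also restrains the kinase PERK. It was at 843, 488 and 589 in the BM-MSC libraries, 194, 215 and 2724 in the P-SSC libraries and 3063, 4032, 2279 and 4066 in the graft BM-MSC libraries. The 4 graft libraries and P-SSC 4 were all above the other 5 libraries, so the gene followed GC class, although its own GC content is 43.2%. Graft BM-MSCs were 6.73-fold above P-SSCs (SE 0.79, limma adjusted p = 0.0348). The call was lost in 6 of 7 fits without 1 library, at limma adjusted p from 0.0517 to 0.158, and with GC class as a covariate (limma adjusted p = 0.788). Neither edgeR nor DESeq2 called the rise against P-SSCs. Within the class of the graft libraries the difference from P-SSC 4 was 0.26 on the log2 scale.

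Dnajc3 shares a promoter element with Hspa5 and Hsp90b1. The ER stress element, the site of the factors ATF6 and NF-Y (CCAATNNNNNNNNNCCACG, or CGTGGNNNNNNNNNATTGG on the other strand), occurred in 0.119% of all windows and in 3.49% of the windows of these genes, in these 3 genes alone of the 66 matched. They are shown with the element in capitals because the 3 genes differ in how their levels ran across the groups. Hsp90b1 carries it on the other strand in the stretch shown.
Hspa5, chr2:34772010-34772058, plus strand: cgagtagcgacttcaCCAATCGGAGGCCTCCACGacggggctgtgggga
Hsp90b1, chr10:86705518-86705566, minus strand: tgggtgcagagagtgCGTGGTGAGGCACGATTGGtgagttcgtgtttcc
Dnajc3, chr14:118937812-118937860, plus strand: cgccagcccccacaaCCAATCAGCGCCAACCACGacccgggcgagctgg
The CCAAT box alone (CCAAT or ATTGG) occurred in 37.4% of all windows and 36% of those of these genes.

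Besides Dnajc3, 6 genes had all 5 libraries of the high GC class above all 5 of the low class: Bag1, Bag4, Hspb1, Hspa4, Dnajc25 and Dnajb14. These 7 of 79 (8.86%) compare with 6.67% of all genes tested. Hspb1 (HSP27 in humans, HSP25 in mice), the main inducible small HSP, which caps actin filaments, was at 112, 62.2 and 122 in the BM-MSC libraries, 133, 253 and 3212 in the P-SSC libraries and 341, 1332, 758 and 794 in the graft BM-MSC libraries. Bag1, a nucleotide exchange factor of HSP70 that binds the proteasome, was at 127, 65.4 and 211 in the BM-MSC libraries, 351, 327 and 6079 in the P-SSC libraries and 1270.0, 705, 1021 and 1721 in the graft BM-MSC libraries. In both genes P-SSC 4 was the highest library of all, 17.4-fold and 17.9-fold above the geometric mean of the other P-SSC libraries, and graft BM-MSCs lay between P-SSC 4 and the rest. The 2 transcripts are 61.7% and 54.6% GC, against a median of 49.7% for all genes tested, while those of Dnajb14 and Bag4 are 42.4% and 44.0%.

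Neither gene passed in limma, while DESeq2 called both higher in graft than in steady-state BM-MSCs and in P-SSCs than in BM-MSCs. In limma the log2 differences between graft and steady-state BM-MSCs were 2.92 for Hspb1 (SE 0.97, limma adjusted p = 0.0973) and 3.20 for Bag1 (SE 0.93, limma adjusted p = 0.0655). Hspa4, the constitutive HSP110-type exchange factor, was at 176, 147 and 262 in the BM-MSC libraries, 158, 141 and 1171 in the P-SSC libraries and 677, 1304, 629 and 521 in the graft BM-MSC libraries, with P-SSC 4 among the graft libraries and well above every library of the low class. Of the Hspb1 transcript, 42.7% of 100-base stretches also occur in its pseudogene.

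**Figure D5:**
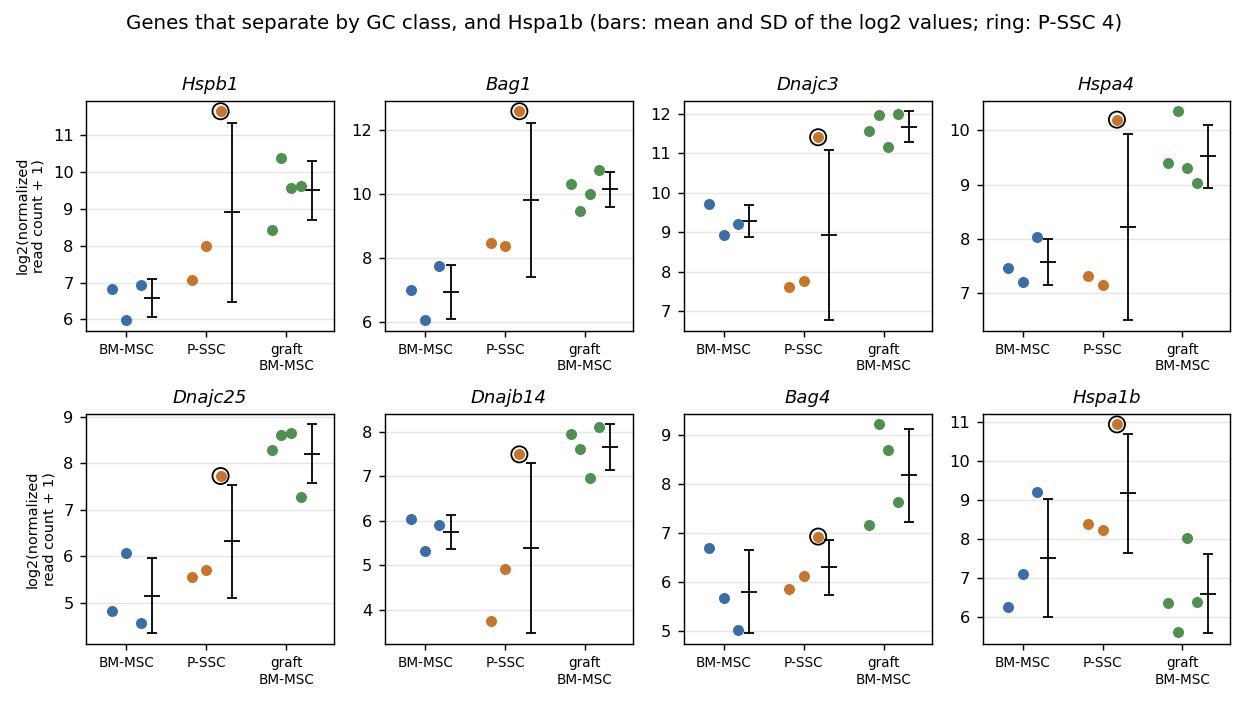
Log2(normalized read count + 1) (vertical axes, not starting at 0) of 8 chaperone genes in each library, with the mean and SD of the log2 values beside the points and a ring around P-SSC 4. In 7 panels the ringed point lies with or above the graft libraries or just under them, above the other P-SSC points, and in Hspa1b it is the highest point of all.

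Bag6 and Hspbp1 fell in graft BM-MSCs against both steady-state groups. Bag6, which shields tail-anchored and stray membrane proteins in the cytosol, was at 984, 1479.6 and 1395 in the BM-MSC libraries, 1149, 1427 and 1087 in the P-SSC libraries and 425, 355, 245 and 239.9 in the graft BM-MSC libraries. All graft libraries were below all others. Graft BM-MSCs were 3.94-fold below P-SSCs (SE 0.34, limma adjusted p = 0.00239) and 4.12-fold below BM-MSCs (SE 0.34, limma adjusted p = 0.00662), and no library decided either call. P-SSCs and BM-MSCs differed by -0.06 on the log2 scale (SE 0.36, limma adjusted p = 1). With the GC correction the log2 differences were -1.60 and -1.82, and neither passed (limma adjusted p = 0.0519 and 0.0538).

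Hspbp1, which takes nucleotide from HSP70 and blocks the ligase CHIP, was at 697, 2050.1 and 2514 in the BM-MSC libraries, 2007, 1957 and 1625 in the P-SSC libraries and 296, 290.1, 451 and 104 in the graft BM-MSC libraries, with all graft libraries below all others and BM-MSC 1 well below the other BM-MSC libraries. Graft BM-MSCs were 7.32-fold below P-SSCs (SE 0.56, limma adjusted p = 0.00507) and 6.05-fold below BM-MSCs (SE 0.56, limma adjusted p = 0.0216), and the second call was lost without BM-MSC 2+4 (limma adjusted p = 0.0996) and without BM-MSC 3 (0.101). With GC class as a covariate both calls of Hspbp1 were lost. The call against BM-MSCs was also lost with the GC correction and in a fit of only these groups. Both genes are 59.9% GC. In graft BM-MSC 2, Bag5 was at 0, beside 798 to 1569 in all other libraries, and Bag2 and Bag4 did not pass in limma, while DESeq2 called Bag4 higher in graft BM-MSCs than in either other group.

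J-domain proteins bring clients to HSP70 and switch on its ATPase. None of 4 DNAJA or 10 DNAJB genes passed in any comparison in limma. At an unadjusted p under 0.05 the counts were 1 DNAJA and 2 DNAJB genes between graft cells and P-SSCs, 0 and 5 between graft and steady-state BM-MSCs, and 1 and 0 between the steady-state groups. By edgeR and DESeq2 no DNAJA gene passed, and Dnajb1 passed between graft cells and P-SSCs in both and, with Dnajb4, for graft against steady-state BM-MSCs in DESeq2. Of 24 DNAJC genes tested, 3 fell and Dnajc3 rose in graft BM-MSCs against P-SSCs. These 4 (16.7%) compare with 18.1% of all genes. Of the DNAJC genes, edgeR and DESeq2 each called only Dnajc14 and Dnajc28 there, and limma with GC class as a covariate only Dnajc28. Dnajb1 (HSP40), the partner that loads HSP70 after heat shock, was at 2047, 1815 and 3275 in the BM-MSC libraries, 2813, 2141 and 1849.5 in the P-SSC libraries and 2372, 8184, 6555 and 5502 in the graft BM-MSC libraries. Graft BM-MSC 2, 3 and 4 were above all other libraries, and graft BM-MSC 1 lay within the range of the others. The log2 differences were 1.20 against P-SSCs (SE 0.40, limma adjusted p = 0.0645) and 1.16 against BM-MSCs (SE 0.40, limma adjusted p = 0.111) in the main test. Dnaja1, the cytosolic J protein with the highest mean in its family, was at 1527, 1068 and 1256 in the BM-MSC libraries, 2195, 1926 and 1953 in the P-SSC libraries and 1394, 2111, 1350.5 and 1699 in the graft BM-MSC libraries, with P-SSCs above BM-MSCs and graft libraries overlapping with both.

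Dnajc28, a J protein of little-known function, was listed at 0 in all 4 graft libraries, at 59.2, 61.1 and 158 in the P-SSCs and at 1.04, 59.1 and 14.8 in the BM-MSCs. P-SSCs were at least 37.7-fold above the floor of 3 reads in graft BM-MSCs (limma adjusted p = 0.00473), and BM-MSC 1 lay under that floor. Dnajc14, an ER membrane J protein, was at 1196, 1064 and 1191 in the BM-MSC libraries, 1585, 1499 and 1399 in the P-SSC libraries and 138, 609, 544 and 316 in the graft BM-MSC libraries, with graft libraries below all others. It was 4.29-fold lower in graft BM-MSCs than in P-SSCs (SE 0.48, limma adjusted p = 0.0117), which was lost without P-SSC 1 (limma adjusted p = 0.0503), and against BM-MSCs it missed the threshold (SE 0.48, limma adjusted p = 0.0545). Dnajc14 also lost its call against P-SSCs with the GC correction, with GC class as a covariate and in a fit of only these groups. Its locus overlaps other genes on both strands, and reads between them cannot be told apart where the counting did not use strand. The remaining call was Dnajc17, a splicing-linked J protein at 247, 304 and 219 in P-SSCs and 30.5, 0, 67.5 and 0 in graft BM-MSCs, which was lost in 5 of 7 fits without 1 library and in both edgeR and DESeq2. Dnajc8, also a splicing factor, had log2 differences of -0.13, 0.07 and -0.06 in the same order as given for Dnajc10, and Dnajc5, the chaperone of synaptic vesicles, of -0.23, 0.45 and 0.22, none of which passed.

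The CCT ring needs all of its subunits in equal number, and 7 of them were among these genes. The subunit Tcp1, which the symbol rule does not take, had a log2 difference of -0.10 between graft BM-MSCs and P-SSCs (SE 0.26, limma adjusted p = 0.814). Its groups overlapped, and graft BM-MSC 1 held its highest value (3322). The 7 Cct genes all had negative log2 differences between graft BM-MSCs and P-SSCs (-0.97 to -0.18, median -0.79). Over all genes tested the median was -0.47, with 12.0% lower calls. Of the 7, 3 (42.9%) passed as lower in limma: Cct3, Cct5 and Cct7. Cct5 was at 5554, 5753 and 7588 in the BM-MSC libraries, 6944, 10731 and 5832 in the P-SSC libraries and 4308, 4690.3, 3555 and 3352 in the graft BM-MSC libraries, with graft libraries below all others. Cct7 was at 5608, 6743 and 7744 in the BM-MSC libraries, 6294, 6576 and 5766 in the P-SSC libraries and 3351, 4277, 2966 and 4799.6 in the graft BM-MSC libraries, likewise with graft libraries below all others, and it also passed against BM-MSCs (SE 0.21, limma adjusted p = 0.0463). Cct3 was at 4711, 5598 and 5279 in the BM-MSC libraries, 5544, 7512 and 4664 in the P-SSC libraries and 2171, 3291, 2829 and 3825 in the graft BM-MSC libraries, again with graft libraries lowest. The falls against P-SSCs were 1.95-fold for Cct3 (SE 0.24, limma adjusted p = 0.0205), 1.92-fold for Cct5 (SE 0.25, limma adjusted p = 0.0232) and 1.64-fold for Cct7 (SE 0.21, limma adjusted p = 0.0433). Each of these calls was lost without P-SSC 1 and without P-SSC 2+5, at limma adjusted p from 0.0596 to 0.132. That of Cct5 was also lost without graft BM-MSC 3 and graft BM-MSC 4 in turn, and that of Cct7 without graft BM-MSC 1 and graft BM-MSC 3 in turn. The call of Cct7 against BM-MSCs was lost in 6 of 7 fits without 1 library (limma adjusted p from 0.0515 to 0.178). All of these calls were lost with centring on the median, quantile normalization and the GC correction. The other 4 Cct genes did not pass, among them Cct2 at 1521, 1436 and 1851 in the BM-MSC libraries, 1642, 1729.9 and 1718 in the P-SSC libraries and 814, 1633, 981 and 713 in the graft BM-MSC libraries, where graft BM-MSC 2 reached the level of the other groups. In edgeR no CCT gene passed for graft BM-MSCs against P-SSCs, and DESeq2 called these 3 and Cct8. In limma with GC class as a covariate no CCT gene passed in either graft comparison (0 with an unadjusted p under 0.05 in each). P-SSCs and BM-MSCs had a median log2 difference over the 7 subunits of 0.16 and no call in limma (0 with an unadjusted p under 0.05), edgeR or DESeq2.

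Mitochondrial chaperones of the symbol rule did not pass in any comparison in limma. Of the partner genes examined below, the mitochondrial chaperones Trap1 and Clpb passed as lower in graft BM-MSCs than in P-SSCs. Their log2 differences were -1.24 (limma adjusted p = 0.0331) and -1.37 (limma adjusted p = 0.0311). Hspd1 and Hspe1 form the HSP60 and HSP10 folding chamber and share 1 promoter between them in head-to-head order. Hspd1 was at 1407, 1385 and 1829.6 in the BM-MSC libraries, 1556, 1552 and 1277 in the P-SSC libraries and 1163, 269, 1079.6 and 823 in the graft BM-MSC libraries, with graft libraries below all others. Hspe1 was at 430.3, 862 and 1207 in the BM-MSC libraries, 553, 945 and 711 in the P-SSC libraries and 911, 1085, 721 and 965 in the graft BM-MSC libraries, with overlap between all groups. Hspd1 had a log2 difference of -1.0 between graft BM-MSCs and P-SSCs (SE 0.47, limma adjusted p = 0.167) and Hspe1 of 0.34 (SE 0.39, limma adjusted p = 0.577). Hspa9 (mortalin), the HSP70 that draws proteins through the inner membrane, was at 2249, 1099 and 2837 in the BM-MSC libraries, 2324, 2119.7 and 2514 in the P-SSC libraries and 1759, 981, 1516 and 1570.0 in the graft BM-MSC libraries, with graft libraries below the P-SSCs and overlap with BM-MSCs (SE 0.35, limma adjusted p = 0.188). Of 8 mitochondrial genes of the symbol rule, counting J proteins and grouped after the values had been seen, none passed in limma. At an unadjusted p under 0.05 there were 2 between graft cells and P-SSCs, 3 between graft and steady-state BM-MSCs, and 0 between the steady-state groups. edgeR called none of the 8, and DESeq2 called Dnajc30 lower for graft against steady-state BM-MSCs.

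Neither heat shock factor gave a call. Hsf1 was at 608, 901 and 945 in the BM-MSC libraries, 769, 924 and 958 in the P-SSC libraries and 803, 1703, 728 and 585 in the graft BM-MSC libraries, and graft BM-MSC 2 held the highest value. Its log2 differences were 0.13 for P-SSCs against BM-MSCs (SE 0.42, limma adjusted p = 0.994), -0.01 for graft BM-MSCs against P-SSCs (SE 0.39, limma adjusted p = 0.998) and 0.12 for graft against steady-state BM-MSCs (SE 0.39, limma adjusted p = 0.877). It passed in neither edgeR nor DESeq2, and its unadjusted p was above 0.05 in all. HSF1 is known to act mostly through the state of its protein, which RNA does not show. Hsf2 was at 17.8, 2.11 and 18.7 in the BM-MSC libraries, 11.4, 1.27 and 2.91 in the P-SSC libraries and 3.39, 39.6, 0 and 0 in the graft BM-MSC libraries and was too low to test.

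Genes that work with these chaperones were examined as a list of 41 partners, all of them tested. The list held HSP90 co-chaperones, prefoldin, the CCT subunit Tcp1, ER folding enzymes, mitochondrial chaperones and proteases, and ubiquitin genes. Between graft BM-MSCs and P-SSCs 10 fell and 0 rose (24.4%, against 18.1% of all genes). By edgeR 6 of the 41 fell, by DESeq2 12 and with GC class as a covariate 3. Serpinh1 (HSP47), the collagen chaperone of the ER, was at 81096, 96307 and 98396 in BM-MSCs, 67468, 91020.0 and 65429 in P-SSCs and 26766, 21347, 20917 and 32772 in graft BM-MSCs, which were all below both other groups. It fell by 1.56 on the log2 scale against P-SSCs (SE 0.19, limma adjusted p = 3.38e-04) and by 1.87 against BM-MSCs (SE 0.19, limma adjusted p = 0.00151). Vcp, the ATPase that extracts proteins for degradation, fell by 1.27 and 1.18 in the same comparisons (limma adjusted p = 0.00147 and 0.00756). Cdc37, which brings kinases to HSP90, fell by 1.47 against P-SSCs (SE 0.24, limma adjusted p = 0.00186), as did Sgta, which works with Bag6, by 1.28 (SE 0.26, limma adjusted p = 0.00612).

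Against BM-MSCs, 7 partners fell in graft BM-MSCs and 0 rose (17.1%, against 7.67% of all genes), including the disulphide isomerase Pdia6, by 0.91 (SE 0.15, limma adjusted p = 0.006), and the lectin chaperone Calr, by 0.95 (SE 0.19, limma adjusted p = 0.0147). Pdia6 was the only one of the 41 that passed between P-SSCs and BM-MSCs, lower in P-SSCs by 0.60 on the log2 scale (SE 0.16, limma adjusted p = 0.038). For graft against steady-state BM-MSCs edgeR called 4 of the 41 and DESeq2 10, and limma with GC class as a covariate none (10 with an unadjusted p under 0.05). The summed level of the 41 genes was 186848 to 194966 in graft BM-MSCs, 310492 to 350547 in BM-MSCs and 269638 to 366481 in P-SSCs.

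Of 12 genes of the unfolded protein response, 2 rose in P-SSCs against BM-MSCs (16.7%, against 9.15% of all genes). Ppp1r15a (GADD34), which restores translation after stress, was at 15536, 12817 and 6339 in P-SSCs, 1214, 1575 and 1914 in BM-MSCs and 1557, 5249, 2709 and 3688 in graft BM-MSCs, and P-SSCs were above all others (log2 difference from BM-MSCs 2.81, SE 0.46, limma adjusted p = 0.00244). Atf4, the factor of the integrated stress response, was 1.10 higher in P-SSCs than in BM-MSCs (SE 0.25, limma adjusted p = 0.0203). In this comparison edgeR called Ppp1r15a and not Atf4, and DESeq2 called both. In graft BM-MSCs Ppp1r15a and Ddit3 (CHOP) fell against P-SSCs, by 1.85 (SE 0.43, limma adjusted p = 0.0131) and 1.25 (SE 0.36, limma adjusted p = 0.0345), and Ddit3 fell against BM-MSCs by 1.47 (SE 0.36, limma adjusted p = 0.0337). These were 16.7% and 8.33% of the 12 genes, against 18.1% and 7.67% of all genes. DESeq2 called these genes too, while edgeR called Ppp1r15a against P-SSCs but Ddit3 in neither comparison. With GC class as a covariate none of the 12 passed in either (2 and 5 with an unadjusted p under 0.05). Xbp1, which drives ER chaperones, was at 531, 818 and 9304 in P-SSCs, 1873, 1536 and 1469 in BM-MSCs and 7382, 9495, 8392 and 6818 in graft BM-MSCs, with P-SSC 4 among the graft libraries as for Dnajc3.

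Early response genes, which are known to be induced along with heat shock genes while tissue is digested and sorted, were read in the same libraries because periosteum was digested for longer than marrow by the study's methods. The summed level of 15 of them, such as Fos and Atf3, was 44734 to 81006 in BM-MSCs, 225352 to 314125 in P-SSCs and 94168 to 452194 in graft BM-MSCs, and none was at 0 in a whole group. P-SSCs were thus above BM-MSCs without overlap in the sum, as they were for Hspb8, Bag3, Hspa8 and Hsp90ab1. Of the 15 genes, 3 rose in P-SSCs against BM-MSCs in limma (20%, against 4.57% of all genes higher), 2 in edgeR and 10 in DESeq2. In graft against steady-state BM-MSCs 5 rose in limma (33.3%, against 2.61% of all genes higher), 3 in edgeR and 11 in DESeq2, but none with GC class as a covariate (3 with an unadjusted p under 0.05). Jun was at 547, 600.1 and 994 in BM-MSCs, 735, 1050 and 23884 in P-SSCs and 7983, 18715, 16831 and 21308 in graft BM-MSCs, so it followed GC class, which cannot be told apart from group there. Between graft cells and P-SSCs, 2 rose and 2 fell in limma, and none passed with GC class as a covariate (1 with an unadjusted p under 0.05). The graft libraries were above BM-MSCs in the sum as well, and below all BM-MSC libraries for Bag3 and Hsp90ab1. The part of cell preparation in these levels was not tested.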

How the data were processed

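RNA-seq libraries were analysed from 4 samples of graft cells, 3 of BM-MSCs and 3 of P-SSCs, each mapped to its group by its label. The authors counted reads per gene and divided each count by a size factor of the library with DESeq2, and the deposited normalized counts are the signal used here. The submitters' processing notes name FastQC 0.11.5, cutadapt 1.15, STAR 2.5, featureCounts of Subread 1.4.6, DESeq2 1.26.0 and the build GRCm39, whereas the methods name GRCm38. Coordinates are those of GRCm38 from the annotation matched by Ensembl identifier (15052 of 15078 found). Many of these loci overlap another gene, and whether counting used strand is not given in the sources used here. Whole reads were recovered from the steps of the values in every library (100% of values within 0.02 of a step), which gives the depth stated with the results. Fold floors take 3 reads per library and cover counting error only.

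Values were tested as log2(value + 1) with limma 3.58.1 in R 4.3.3 (a variance trend, all 10 libraries in 1 fit, two-sided, Benjamini-Hochberg adjustment over the 13644 genes with a mean of at least 10, threshold 0.05). The same steps were tested on simulated data. Alternatives were edgeR 4.0.16 and DESeq2 1.42.0 on the recovered reads, other pseudocounts, filters and scalings, a loess correction for GC content, GC class as a covariate, a replicate block and fits without each library. Tables were handled with pandas 2.3.3 in Python 3.11.15. Genes named with values were 22 fixed ones, up to 15 that passed in each comparison and the highest of each family, and up to 4 partner genes per direction and comparison. Others (among them Hspa2, Hspa4, Hspa4l, Hspb2, Hspb6, Hspb7, Bag2, Bag4, Bag5, Dnajb4, Dnajb11, Dnajb14, Dnajc5, Dnajc8, Dnajc17, Dnajc25 and the unfolded protein response genes) were picked after their values were seen. All gene lists and members were chosen with earlier results of these data known. Transcript stretches were compared by exact match of 100-base windows to the annotated transcripts.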

Additional observations from a re-analysis of the deposited data

Results flagged for a closer look

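Among the 32 genes named by rule, each group of 4 graft libraries was examined for a library far from the others, by the gap of the extreme value over the range against Dixon's 95% critical value. Chance flags about 1 in 20 such groups. Hsf2 in graft BM-MSC 2 gave 0.914, with values of 3.39, 39.6, 0 and 0 in the 4 libraries, all of them low. Hspa1b in graft BM-MSC 3 gave 0.835, with values of 80.2, 48.1, 259 and 82.9.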

How the results depend on the processing

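Of the results for single named genes under the alternatives, 399 kept their direction and side of the threshold, 174 lost the call, 5 values without a test moved by more than the replicate spread, and 0 reversed. Between graft cells and P-SSCs, where 19 genes passed, 9 passed with the GC correction, 7 with GC class as a covariate, 11 in edgeR, 9 in a fit of only these groups and 8 to 19 with 1 library left out (10 without P-SSC 2+5). For graft against steady-state BM-MSCs, where 5 passed, the count was 0 with GC class as a covariate, 16 in DESeq2, 8 in a fit of only these groups, 16 without P-SSC 4 and graft BM-MSC 2 together (an alternative chosen after seeing the data) and 2 to 8 with 1 library left out. For P-SSCs against BM-MSCs, where 4 passed, 2 passed with centring on the median, 2 with the GC correction, 2 in edgeR and 2 to 4 with 1 library left out. The cause was not tested. Libraries of different groups with the same number in their titles hardly correlated (correlations of deviations from the group means -0.019 to 0.030). Whether such libraries share a mouse is not stated in the sources used here. With the replicate number as a block 0 of 79 genes passed in each comparison. That fit spends most of its degrees of freedom on the blocks, so it has little power to call any gene. The shift of all genes tested between graft BM-MSCs and P-SSCs was -0.47 on the log2(value + 1) scale, -0.02 with quantile normalization and 0.03 in edgeR, so a fall near that size depended on the scaling. Over all genes, edgeR called 1531, 316 and 619 and DESeq2 2908, 1947 and 1515 between graft cells and P-SSCs, graft and steady-state BM-MSCs, and the steady-state groups. With 3 or 4 libraries a group, and zeros frequent in the graft libraries, changes of genes with few reads were poorly determined.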

Other observations

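Among genes of the module outside the comparisons above, Dnaja4 (cytosolic J protein) was at 2.09, 32.7 and 13.8 in the BM-MSC libraries, 43.6, 24.2 and 151 in the P-SSC libraries and 80.8, 0, 0 and 0.863 in the graft BM-MSC libraries, highest in P-SSC 4. Dnajb4, a cytosolic J protein, was at 504, 304 and 323 in the BM-MSC libraries, 887, 799 and 424 in the P-SSC libraries and 886, 513, 1901 and 1019 in the graft BM-MSC libraries, and graft BM-MSC 2 alone among the graft libraries lay below both P-SSC 1 and P-SSC 2+5. Hspa1l, the HSP70 gene next to Hspa1a known from testis, had reads in BM-MSC 1 (9.40) and graft BM-MSC 2 (92.8) and was listed at 0 in the other 8 libraries. Dnajc6 (auxilin), which works with HSP70 in uncoating clathrin, was at 2.09, 17.9 and 67.1 in the BM-MSC libraries, 4.15, 0 and 0 in the P-SSC libraries and 0 in all 4 graft libraries. Dnajb3, an intronless gene inside the Ugt1a cluster, was at 33.4, 40.1 and 44.4 in the BM-MSC libraries, 6.23, 7.64 and 57.2 in the P-SSC libraries and 0, 0, 0 and 91.5 in the graft BM-MSC libraries, and its reads cannot be told apart from that cluster where counting did not use strand.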
